A study of Homo sapiens with 9 samples.

Results

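Messenger RNA was compared between A375 tumours that carried a wild-type RNF4 construct and A375 tumours that carried a catalytically inactive RING mutant of RNF4, with doxycycline (Dox) given in both arms. The A375 line is an established line of human melanoma cells and carries a BRAF mutation. The comparison was chosen by its labels and used 6 of the 9 libraries of the series, 3 per group. In both groups the construct is switched on by Dox, which nude mice drank with their water from day 3 until the tumours were collected on day 30. In the first group, RNF4 with Dox (T2, T5 and T13), the induced protein is the active ligase. In the second group, RING mutant with Dox (T3, T6 and T14), it is RNF4 with the change C159A. The numbers are those of the count columns, whose names give the group but not which sample of it. The other 3 libraries, T1, T4 and T12, are labelled as the RNF4 construct without Dox and entered only as the uninduced level. The series text names tumours with GFP as its control instead, so what these libraries hold rests on their titles. Each library held RNA of 2 pooled tumours, so the spread between libraries is one between pools. Strand-specific libraries were made from poly(A)-selected RNA. Whether the wild-type and mutant lines were single clones was not given in the sources used here.

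RNF4 is a SUMO-targeted ubiquitin ligase. It binds chains of the small modifier SUMO on its targets through SUMO-interacting motifs, and its C-terminal RING domain then recruits a ubiquitin-conjugating enzyme. Ubiquitination by RNF4 sends some targets, such as PML, to the proteasome, whereas for others, among them the transcription factors MYC and JUN and the Notch1 intracellular domain, it has been linked to greater stability. The cysteine changed in the mutant is a zinc ligand of the RING domain. Its codon is shown because it is the only designed difference between the 2 proteins named in the labels. In the reference transcript RNF4-201, which has 190 coding codons, codon 159 lies in exon 8 (GRCh38, chr4:2513721-2513723, plus strand). The codon is in capitals in the following 45 bases of the reference genome.
RNF4-201 codon 159: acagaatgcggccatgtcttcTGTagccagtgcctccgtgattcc
The codon used in the mutant construct itself is not shown.

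Transcript of RNF4 was abundant in all 3 libraries of wild-type RNF4 and in 1 of the 3 libraries labelled RING mutant. Its raw counts were 7946 in T2, 9219 in T5 and 10988 in T13, against 794 in T3, 12786 in T6 and 1118 in T14. On library sizes scaled by TMM (edgeR's trimmed mean of M values), these were 380, 413 and 454 CPM (counts scaled to library size) against 47.0, 559 and 63.5 CPM. The uninduced libraries had 33.4, 52.0 and 43.2 CPM. T6 thus lay above every wild-type library, while T3 and T14 lay near the uninduced level, so the groups overlapped. The counts sum transcripts of the construct and of the cells' own RNF4, which could not be told apart. The log2 difference was 0.90 ± 0.77 (SE, unadjusted p = 0.273, edgeR quasi-likelihood test) and ranged from 0.41 without T3 to 2.91 without T6. T6 is the only library in which the label of an induced mutant is matched by the RNF4 count, and every result on the mutant group below concerns libraries by their label.

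**Figure D1:**
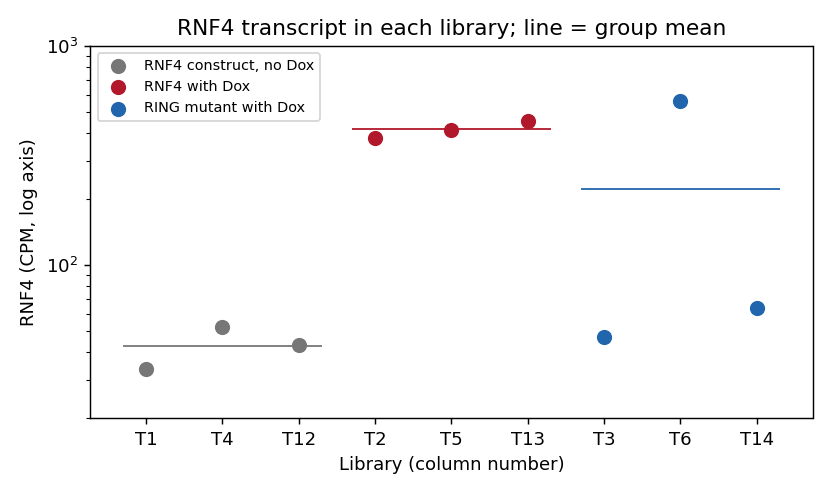
RNF4 transcript in each of the 9 libraries (CPM on TMM-scaled library sizes, log axis), coloured by labelled group, with a line at each group's mean. The wild-type libraries sit between 380 and 454 CPM, T6 sits at 559 CPM, and T3 and T14 sit near the uninduced libraries at 47.0 and 63.5 CPM.

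Total counts ran from 16416426 to 23492933 in the 6 libraries, with the lowest in T14 and T3. Genes for cytosolic ribosomal proteins took 16.1% of counts in T2 and 6.75% to 9.73% in the other 5. In a principal component analysis of the 6 libraries, T13 and T14 lay together at one end of the first component (40.0% of the variance), and T2 lay alone on the second (29.2%). Neither component separated the labelled groups. Libraries with neighbouring column numbers deviated from their group means together, with correlations across genes of 0.157 for T2 and T3, 0.249 for T5 and T6, and 0.569 for T13 and T14. What those numbers record is not given in the sources used here. The melanocyte lineage factor SOX10 was measured at 39.0 to 80.9 CPM in the 6 libraries, whereas the pigment genes TYRP1 and PMEL were at most 1.78 CPM in the 5 libraries other than T14, which had 8.13 and 10.2 CPM.

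The question put to the whole transcriptome was which genes differ when the induced ligase is active rather than inactive. Of 18618 genes tested, 0 passed an adjusted p of 0.05 (0.00%, edgeR quasi-likelihood test, Benjamini-Hochberg adjustment). The smallest adjusted p was 0.99988, so no gene below passed this test, and differences are given with their unadjusted p. An unadjusted p under 0.05 was reached by 251 genes (1.35%), 187 higher with RNF4 and 64 lower. DESeq2 called 1 gene (0.00537%), edgeR's likelihood ratio test 3 (0.0161%) and the fit without a filter on low counts 38 of 38388 (0.0990%), all higher with RNF4. At the same library sizes, simulated data gave back 4 of 50 genes changed 2-fold, 33 of 50 changed 4-fold and 46 of 50 changed 8-fold. The simulated libraries varied independently around 1 mean per gene, without an outlying library like T2 or deviations shared between libraries. These recoveries therefore cannot say which changes the test would have found in the real libraries. Groups that did not overlap, with all 3 libraries of one above all 3 of the other, were found for 505 genes higher with RNF4 (2.71%) and 422 lower (2.27%). In all, 10380 genes (55.8%) had a log2 difference above 0, and the median was 0.03.

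Genes lower with wild-type RNF4 that stood at the top of the ranking had small, even differences. PRRX1, a homeobox transcription factor of mesenchymal cells, had 53.8, 54.6 and 54.7 CPM with RNF4 and 84.7, 88.8 and 103 CPM in T3, T6 and T14. The 3 wild-type libraries were nearly equal and all lay below the mutant group, and the uninduced mean was 75.6 CPM. Its log2 difference was -0.76 ± 0.17 (SE, unadjusted p = 0.00102), and it lay between -0.82 and -0.68 when any library was left out. ITGA1, which encodes an integrin alpha subunit that binds collagen, had 50.1, 35.6 and 34.2 CPM against 71.2, 61.3 and 78.9 CPM, a log2 difference of -0.82 ± 0.21 (SE, unadjusted p = 0.00357). Its uninduced mean of 87.5 CPM was on the side of the mutant. TNFRSF19, a TNF receptor family member known as a Wnt target, had 19.4, 16.9 and 15.6 CPM against 30.6, 36.2 and 23.5 CPM (log2 difference -0.80). WNT7B, a secreted Wnt ligand, was low throughout, at 1.82, 1.75 and 2.27 CPM against 3.73, 3.72 and 5.06 CPM (log2 difference -1.10). These genes were chosen among those whose groups do not overlap. That T6, the library with the most RNF4 transcript, lay with T3 and T14 was therefore fixed by the choice.

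The other genes of this group had varied roles. SYTL5, a synaptotagmin-like protein that binds Rab27, had 33.1, 26.5 and 26.2 CPM with RNF4 and 45.9, 37.8 and 51.0 CPM with the mutant. NTSR1, a neurotensin receptor, had 37.5, 31.4 and 39.6 CPM against 59.6, 47.5 and 58.9 CPM. CHGB, a granin of secretory granules, had 4.88, 11.3 and 10.8 CPM against 17.3, 18.9 and 20.2 CPM. T2 was the lowest library of CHGB, and the groups were apart in all 3 genes by the way they were chosen. STRA6, a receptor that takes up retinol, had 22.2, 26.9 and 33.0 CPM against 34.7, 53.9 and 50.7 CPM, so that T13 and T3 nearly met. CAPS, CHST1, the axonemal dynein gene DNAH9 and a processed pseudogene (named in the symbol table by its identifier, ENSG00000213514, and whose reads may be shared with its parent gene) completed the 12. Log2 differences over the 12 ran from -1.35 to -0.61, and all 12 were below 0 under every alternative and without any 1 library. The kept sign is no check on these genes. They were chosen because their groups do not overlap, and groups that are apart stay apart when libraries are left out.

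Genes higher with RNF4 differed by more than those lower. All 12 of the ranked genes had their highest value of the 6 in T2, and log2 differences ran from 1.77 to 6.85. FBN2, fibrillin 2 of elastic microfibrils, had 14.7, 7.66 and 11.3 CPM with RNF4 against 1.07, 4.33 and 3.18 CPM with the mutant, a log2 difference of 1.96 ± 0.53 (SE, unadjusted p = 0.00451). PCSK6, a proprotein convertase that cleaves secreted growth factors, had 4.88, 2.51 and 3.60 CPM against 0.889, 0.787 and 1.53 CPM. P2RY1, a receptor for ADP, had 2.20, 0.986 and 1.82 CPM against 0.237, 0.350 and 0.625 CPM. In these 3 genes T13 lay well above the mutant libraries, and the log2 differences without T2 were 1.72, 1.51 and 1.78.

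HES4, a transcriptional repressor of the Hes family downstream of Notch, had 19.4, 8.65 and 4.96 CPM against 2.55, 4.02 and 2.61 CPM. Its log2 difference of 1.84 ± 0.48 (SE, unadjusted p = 0.00338) was 1.15 without T2. BMP7, a bone morphogenetic protein, had 7.70, 2.06 and 2.65 CPM against 0.533, 0.569 and 1.36 CPM. PDPN, podoplanin of lymphatic endothelium and invasive cells, had 7.65, 2.96 and 0.662 CPM against 0.119, 0.437 and 0.625 CPM, so T13 exceeded T14 only narrowly. TMEM98 had 9.85, 3.45 and 2.65 CPM against 0.889, 1.53 and 1.59 CPM. The tyrosine kinase gene MATK and the pseudogenes ZNF204P, RPL10P3 and RPS28P7 completed the 12 with AL035425.3. RPL10P3 and RPS28P7 are copies of ribosomal protein genes, so their reads may belong to the parents, whose share of counts was also highest in T2.

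The uninduced RNF4 libraries were not on the side of the mutant for these genes. Their mean was 12.1 CPM for HES4, 9.47 CPM for FBN2, 3.84 CPM for BMP7 and 3.63 CPM for PDPN. Each of these means lay above all 3 libraries labelled RING mutant and within the range of the wild-type libraries with Dox. By mean, the labelled mutant was the low group of the 3 for these 4 genes.

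**Figure D2:**
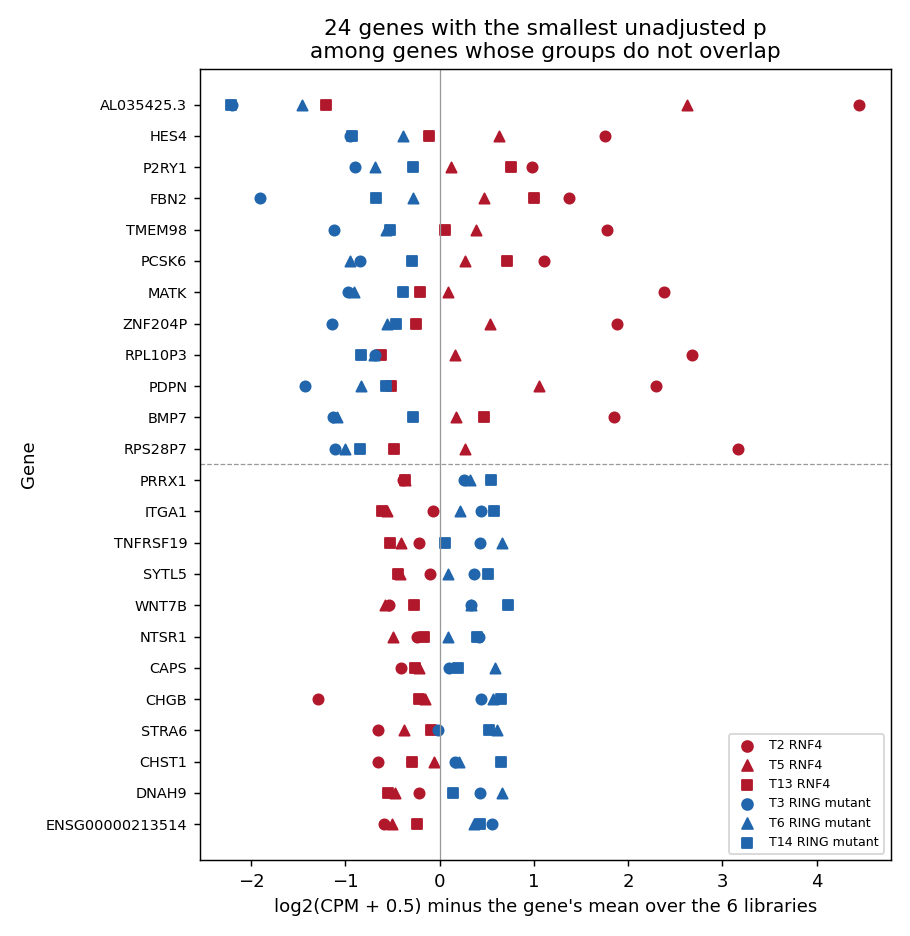
Log2(CPM + 0.5) of each library minus the gene's mean over the 6 libraries, for the 12 genes each way with the smallest unadjusted p among genes whose groups did not overlap. Genes lower with RNF4 (below the dashed line) show tight groups, whereas genes higher with RNF4 (above it) have T2 as the rightmost point in all 12.

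The authors' deposited table for this comparison listed 8 genes as higher with RNF4 and none as lower. They are 5 coding genes by annotation (CA2, RADX, RIMS4, UCHL1 and ZBED10P) and the non-coding AL035425.3, LINC01515 and PRSS30P. The authors' deposited table gives AL035425.3, a transcript that overlaps another gene in sense on chromosome X, a log2 fold change of 6.92 and an adjusted p of 8.1868e-05. Its raw counts were 1167, 343 and 15 in T2, T5 and T13 and 1, 10 and 1 in T3, T6 and T14. The uninduced mean was 27.6 CPM, higher than the wild-type mean with Dox of 23.9 CPM. UCHL1, a deubiquitinase of neurons, had 405, 65 and 8 counts against 1, 9 and 1, so T13 lay below T6. CA2, a carbonic anhydrase, had 30.8, 3.31 and 0.372 CPM against 0, 0.700 and 0.0568 CPM, and again T13 lay below T6. RIMS4, a protein of synaptic vesicle release, had 56 counts over the wild-type group and 0 over the mutant group, at least 15.9-fold higher when the mutant group is set to a floor of 3 counts in all. LINC01515 had 91 counts against 0, at least 25.8-fold higher, but 82 of the 91 were in T2 and 0 in T13. PRSS30P had 65 counts against 1, a ratio of 55.3 with an exact 95% interval of 9.58 to 2217. ZBED10P had 95 against 1, a ratio of 80.8 with an interval of 14.2 to 3225. Of those 95 counts, 77 were in T2 and 1 in T13. These bounds and intervals cover counting error only, and all 8 genes had their highest value of the 6 in T2.

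RIMS4 and UCHL1 belong to the list of neuronal genes. Of 24 listed genes, 15 passed the filter on low counts, and 9 of those had a log2 difference above 0. The median was 0.31 and ranged from -0.07 to 0.47 under the alternatives. Groups were apart for 4 members that were higher (26.7%) and 1 that was lower (6.67%), against 2.71% and 2.27% of all genes. Among the 4, RIMS4 and INA had 2 counts each in T13 and 0 in every mutant library. They passed the filter only through libraries outside the mutant group, so the share is a description and was not tested. The neurofilament gene NEFM had 1.10, 1.52 and 1.08 CPM against 0.474, 0.394 and 0.227 CPM, and its log2 difference of 1.74 was 1.81 without T2. INA, another neuronal intermediate filament gene, had 63 counts over the wild-type group and 0 over the mutant group, at least 17.9-fold higher, with most of them in T2 (2.63 CPM, against 0.269 in T5 and 0.0827 in T13).

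Genes induced by low oxygen were, as a list, on the side of wild-type RNF4. When oxygen is short, the HIF alpha subunits escape destruction, pair with ARNT and bind the core ACGTG or GCGTG in the promoters of genes for glucose transport, glycolysis, vessel growth and matrix crosslinking. All 32 listed genes passed the filter on low counts, and all 32 had a log2 difference above 0, with a median of 0.38 (all genes, 0.03). Groups did not overlap for 7 of them, all higher with RNF4 (21.9% of the members against 2.71% of all genes), and 0 had groups apart in the other direction. They were SLC2A1, ADM, LOX, CA12, KDM3A, ERO1A and BHLHE40. The list's median stayed between 0.25 and 0.49 under the alternatives and without any 1 library. The members share libraries and were listed for a common signal, so they cannot be taken as independent of each other. T5 had the highest median deviation from the 6-library mean (0.38), followed by T2 (0.18), while T13 (-0.10) was close to T3 (-0.12), and T6 and T14 were both lower (-0.22 and -0.21).

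The member with the smallest unadjusted p was ADM, which encodes the vasodilator peptide adrenomedullin. It had 174, 241 and 110 CPM with RNF4 and 92.7, 102 and 100.0 CPM in T3, T6 and T14. T13 lay just above the mutant group, whose libraries were nearly equal, and the log2 difference was 0.83 ± 0.27 (SE, unadjusted p = 0.0117). LOX, lysyl oxidase that crosslinks collagen, had 21.4, 10.4 and 12.4 CPM against 3.50, 2.76 and 10.1 CPM, a log2 difference of 1.44 ± 0.52 (SE, unadjusted p = 0.0212) in which T14 nearly met T5. BHLHE40, a transcriptional repressor, had 208, 348 and 167 CPM against 158, 138 and 139 CPM, a log2 difference of 0.73 that was 0.37 without T5. BNIP3, a mitophagy receptor, had 364, 373 and 226 CPM against 228, 242 and 163 CPM, so that T13 lay below T3 and T6 and the groups overlapped. Transcript of HIF1A itself had 190, 207 and 170 CPM against 206, 171 and 151 CPM, with overlapping groups.

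**Figure D3:**
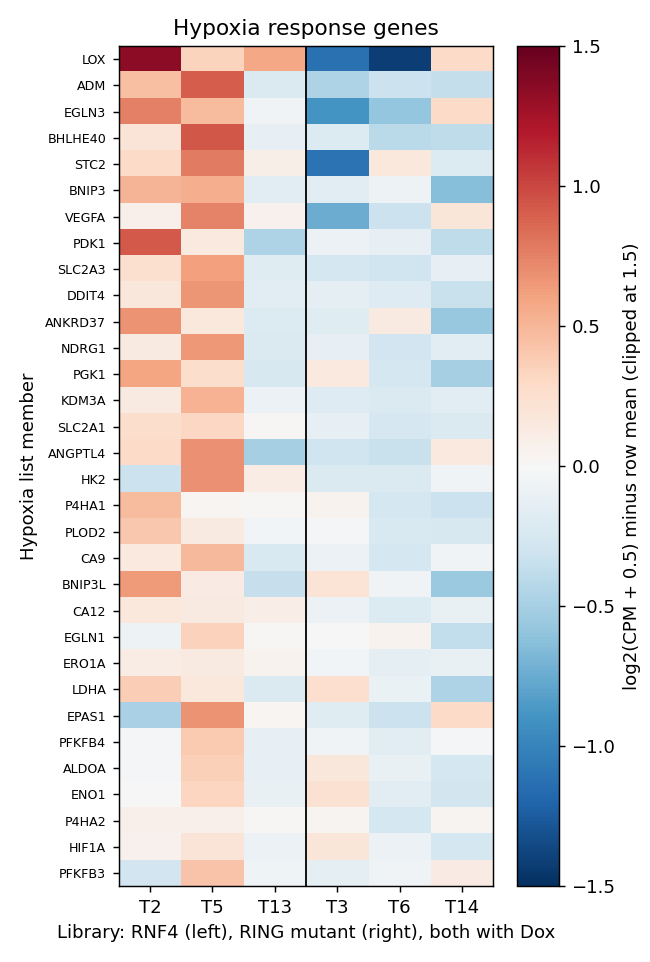
Log2(CPM + 0.5) minus the row mean for the 32 hypoxia list members (rows, ordered by log2 difference) in the 6 libraries (columns), with colour clipped at 1.5. Red cells gather in T2 and T5, while T13 is closer to the mutant libraries on the right of the line.

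Promoters of 3 of these members are shown because the list was defined by a common regulator. They run from 250 bases before to 50 after the start site (RefSeq, GRCh38.p14), and capitals mark ACGTG or GCGTG on either strand, neighbouring matches being merged where they overlap. They are ADM at chr11:10304823-10305122 (plus strand, 1 match), BHLHE40 at chr3:4979187-4979486 (plus strand, 4 matches) and BNIP3 at chr10:131981874-131982173 (minus strand, 6 matches).
ADM: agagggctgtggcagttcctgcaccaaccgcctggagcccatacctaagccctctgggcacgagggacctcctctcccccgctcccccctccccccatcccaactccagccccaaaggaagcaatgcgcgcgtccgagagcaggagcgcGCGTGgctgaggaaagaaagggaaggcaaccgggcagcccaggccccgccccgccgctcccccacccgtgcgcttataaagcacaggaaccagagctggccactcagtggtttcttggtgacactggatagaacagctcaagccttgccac
BHLHE40: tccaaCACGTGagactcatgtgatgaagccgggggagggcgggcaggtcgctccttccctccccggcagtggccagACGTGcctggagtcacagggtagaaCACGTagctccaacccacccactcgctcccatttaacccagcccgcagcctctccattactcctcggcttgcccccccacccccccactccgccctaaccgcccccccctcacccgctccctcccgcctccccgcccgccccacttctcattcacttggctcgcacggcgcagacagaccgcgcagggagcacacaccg
BNIP3: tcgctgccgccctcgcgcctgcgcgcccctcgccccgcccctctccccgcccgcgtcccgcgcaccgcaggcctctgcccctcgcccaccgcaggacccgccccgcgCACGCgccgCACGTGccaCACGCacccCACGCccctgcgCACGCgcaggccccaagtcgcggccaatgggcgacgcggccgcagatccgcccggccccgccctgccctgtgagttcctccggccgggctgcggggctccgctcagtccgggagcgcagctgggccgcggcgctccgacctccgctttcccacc
At least 1 match was found in 26 of the 28 members with a window in the table (92.9%) and in 52.4% of all 27305 genes with one. Such a match is a description of the window and does not show binding.

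The targets of ATF4 showed a smaller shift in the same direction. ATF4 is translated when amino acids run short or the endoplasmic reticulum is stressed, and it raises genes for amino acid synthesis, uptake and transfer RNA charging. Of 35 tested members, 30 had a log2 difference above 0, the median was 0.23, and 7 had groups that did not overlap, all higher with RNF4 (DDIT3, PYCR1, ALDH18A1, CBS, PCK2, SESN2 and VLDLR). That is 20% of the members, against 2.71% of all genes. The median stayed between 0.16 and 0.34 under the alternatives. By neighbouring columns it was 0.117 in T2 minus T3, 0.29 in T5 minus T6 and 0.18 in T13 minus T14. The median of all genes in T2 minus T3 was 0.121, so in that pair the list did not stand above all genes. CBS, cystathionine beta-synthase, had 37.0, 17.1 and 6.99 CPM against 3.91, 5.34 and 6.25 CPM, a log2 difference of 1.98 ± 0.64 (SE, unadjusted p = 0.0120). ASNS, asparagine synthetase, had 148, 58.2 and 40.9 CPM against 41.5, 41.0 and 29.3 CPM, and its log2 difference of 1.14 was 0.41 without T2. PCK2, the mitochondrial phosphoenolpyruvate carboxykinase, had tighter groups, with 30.4, 31.9 and 30.3 CPM against 25.2, 23.8 and 24.6 CPM and a log2 difference of 0.33 ± 0.16 (SE, unadjusted p = 0.0742). VLDLR, a lipoprotein receptor, had 37.4, 33.8 and 31.6 CPM against 26.0, 27.2 and 27.4 CPM.

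A composite C/EBP-ATF site searched as TGATGNAA on both strands, overlaps allowed, was found in 12 of 30 members with a window (40%) and in 4.46% of all genes with one. The promoter of ASNS is shown because this gene is a standard reporter of the response (RefSeq, GRCh38.p14, chr7:97872359-97872658, minus strand, the first of 2 windows). Its match is in capitals.
ASNS: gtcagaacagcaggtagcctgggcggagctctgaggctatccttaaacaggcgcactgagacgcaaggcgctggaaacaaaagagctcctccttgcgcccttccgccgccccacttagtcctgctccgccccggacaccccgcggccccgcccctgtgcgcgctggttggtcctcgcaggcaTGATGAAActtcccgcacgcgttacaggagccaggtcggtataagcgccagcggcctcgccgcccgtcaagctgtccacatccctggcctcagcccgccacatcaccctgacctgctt

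Proteins bound or stabilised by RNF4 were followed at the transcript level, since the assay does not read protein amounts. Of 10 members tested, 8 had a log2 difference above 0, with a median of 0.20 that was -0.07 without T2. MYC had 48.3, 42.1 and 33.8 CPM with RNF4 against 28.3, 28.9 and 33.4 CPM with the mutant, so T13 and T14 nearly met, and the log2 difference was 0.45 ± 0.22 (SE, unadjusted p = 0.0716). JUN had 121, 171 and 136 CPM against 124, 87.1 and 121 CPM, with T2 among the mutant libraries. Among the 27 genes for SUMO, its conjugation and removal and the ligases that read it, 17 were above 0, the median was 0.01, and 0 had groups apart in either direction.

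Notch pathway members were split. Of 19 tested, 10 were above 0, with a median of 0.06. Targets gave the top members, and beside HES4 these were HEY1, a repressor of the same family, and NRARP, a feedback inhibitor of the pathway. HEY1 had 68.3, 14.2 and 6.41 CPM against 5.93, 8.13 and 8.01 CPM, with T13 inside the mutant range. Its log2 difference of 2.01 was 0.48 without T2. NRARP had 8.71, 2.42 and 6.95 CPM against 0.533, 1.01 and 4.83 CPM, with T14 above T5.

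Wnt pathway members were evenly divided, with 16 of 32 above 0 and a median of -0.01. WNT7B and TNFRSF19 were on the low side. WNT10B, another ligand, had 6.31, 8.38 and 7.53 CPM against 4.98, 5.73 and 5.40 CPM, a log2 difference of 0.46 ± 0.27 (SE, unadjusted p = 0.122). Among 16 genes that report or restrain ERK signalling, which BRAF drives, 4 were above 0, with a median of -0.11. By neighbouring columns the median was -0.56 in T2 minus T3, but 0.13 in T5 minus T6 and 0.063 in T13 minus T14. The inhibitors SPRY1 and SPRY4 of the Sprouty family lay on opposite sides. SPRY1 had 10.046, 13.4 and 9.02 CPM against 5.45, 5.73 and 6.14 CPM (log2 difference 0.91 ± 0.34, SE, unadjusted p = 0.0237), and SPRY4 had 33.7, 42.9 and 48.1 CPM against 49.9, 58.0 and 60.4 CPM (log2 difference -0.43 ± 0.20, SE, unadjusted p = 0.0547).

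Genes for adhesion and matrix turnover leaned to the side of the mutant. Of 16 integrin subunits, 12 had a log2 difference below 0, with a median of -0.16 and only ITGA1 with groups apart (6.25% of the members, against 2.27% of all genes). ITGB3, the beta 3 subunit linked to invasive melanoma, had 17.0, 9.27 and 12.4 CPM against 24.1, 12.6 and 14.1 CPM. Matrix metalloproteinases and their inhibitors had 12 of 17 members below 0 and a median of -0.18. TIMP3, a matrix-bound inhibitor, had 251, 296 and 326 CPM against 420, 420 and 679 CPM, a log2 difference of -0.80 ± 0.29 (SE, unadjusted p = 0.0201) that was -0.53 without T14. The medians of both lists turned to 0.02 and 0.06 when T3 and T14 were left out, with T6 as the only mutant library. Invasive mesenchymal genes, a list that holds PRRX1, had a median of 0.02. The matricellular gene CCN1 had 265, 338 and 288 CPM against 255, 208 and 209 CPM. SNAI2, which encodes the repressor Slug, was high in T2 alone (26.0 CPM, against 4.03 to 8.92 CPM in the other 5 libraries). In bulk tumour RNA, fewer cells of a type and less RNA per cell cannot be told apart.

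Of 14 melanocyte lineage genes tested, 7 were above 0, with a median of -0.04. SOX10 had 39.0, 54.9 and 45.6 CPM against 80.9, 61.0 and 48.4 CPM, with T14 below T5. RAB27A, which tethers melanosomes, had 16.9, 20.2 and 18.0 CPM against 26.8, 22.7 and 20.3 CPM and was the only member with groups apart (7.14%, against 2.27% of all genes).

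Interferon-stimulated genes were mostly below 0, by small amounts. Of 37 members tested, 29 had a negative log2 difference, the median was -0.11, and it stayed between -0.18 and -0.03 under the alternatives. By neighbouring columns the median was -0.33 in T2 minus T3 and -0.12 in T5 minus T6. In T13 minus T14 it was 0.047, with 22 of 37 members above 0. Groups were apart for 3 members (8.11%, against 2.27% of all genes), all lower with RNF4. RSAD2, the antiviral enzyme viperin, had 0.239, 0.448 and 0.496 CPM against 0.533, 1.27 and 0.795 CPM. XAF1, a pro-apoptotic interferon target, had 2.39, 2.24 and 2.36 CPM against 3.61, 2.89 and 4.60 CPM, a log2 difference of -0.67 ± 0.30 (SE, unadjusted p = 0.0492). PARP9 was the third. Antigen presentation genes had 13 of 21 members below 0 and a median of -0.08, but 14 of 21 were above 0 in T13 minus T14. CD74, the invariant chain of MHC class II, had 51.9, 70.8 and 67.1 CPM against 87.0, 80.9 and 113 CPM, a log2 difference of -0.57 ± 0.21 (SE, unadjusted p = 0.0214). Among cytokines, IL11 had 129, 117 and 135 CPM against 224, 231 and 143 CPM, while the uninduced libraries ranged from 134 to 545 CPM.

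**Figure D4:**
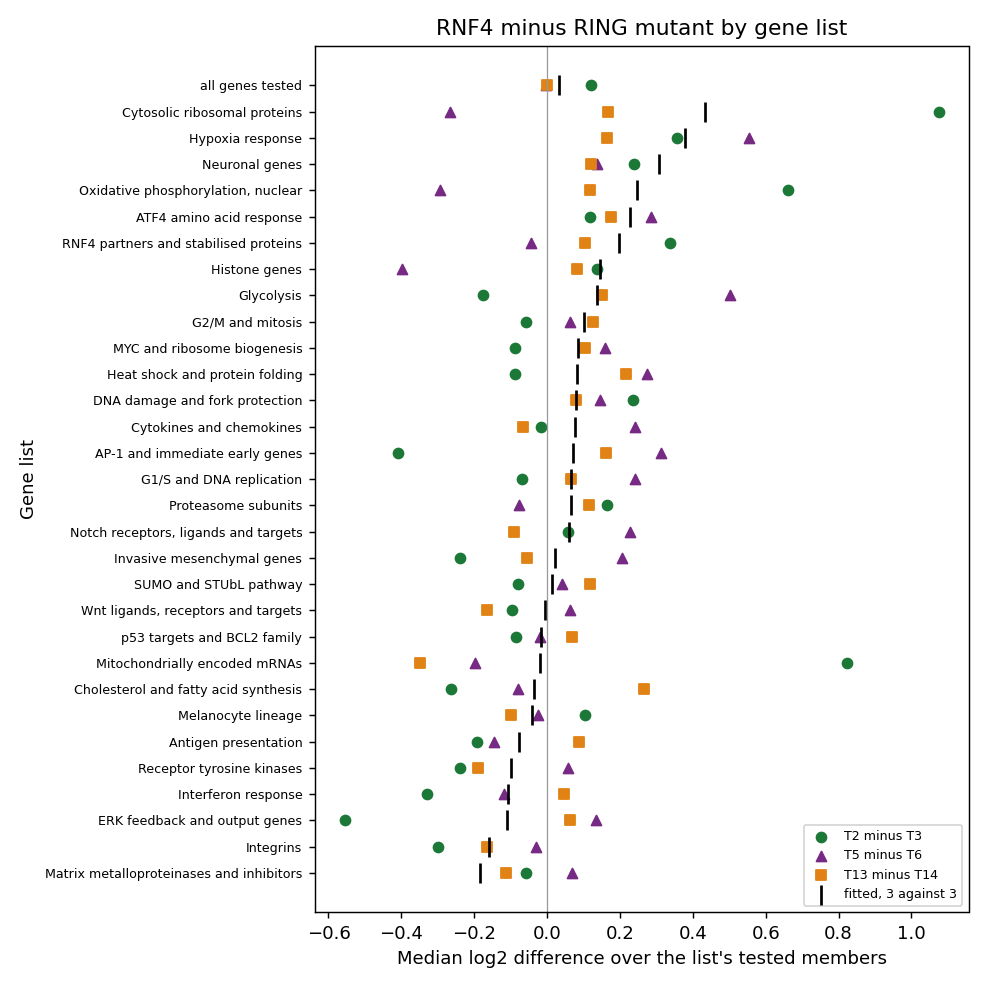
Median log2 difference, RNF4 minus RING mutant, over the tested members of 30 gene lists and over all genes, as fitted over 3 libraries against 3 (black bars) and for each pair of libraries with neighbouring column numbers (coloured symbols). The hypoxia, ATF4, neuronal and DNA damage lists lie above 0 in all 3 pairs. In T2 minus T3, however, the ATF4 list (0.117) lies just below all genes (0.121). The ribosomal protein list lies at 1.08 in the pair with T2 and at -0.27 in T5 minus T6.

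Genes for ribosomal proteins and oxidative phosphorylation had positive medians that turned negative without T2. All 54 tested ribosomal protein genes were above 0, with a median of 0.43, which was -0.12 without T2, and 0 had groups apart. For 24 nuclear genes of oxidative phosphorylation the median of 0.25 was -0.16 without T2. Glycolysis genes had 18 of 20 members above 0 and a median of 0.14. Heat shock genes had 17 of 21 above 0 and a median of 0.08. In T2 minus T3, however, 7 of 20 glycolysis genes (median -0.18) and 6 of 21 heat shock genes (median -0.087) were above 0. These numbers were 20 and 15 in T5 minus T6, and 17 and 18 in T13 minus T14.

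Markers of host cells differed most between single libraries. A human genome alone is named for alignment. Whether these counts are mouse reads or transcripts of A375 cells was not tested. Skeletal muscle markers summed to 135, 19.8 and 274 CPM in the wild-type libraries and to 30.5, 55.8 and 975 CPM in T3, T6 and T14. Of 18 tested members 1 was above 0. The list's median of -1.32 was 1.62 without T14, where actin alpha 1 (ACTA1) had 206 CPM, MYH1 140 CPM and CKM 101 CPM. Keratinocyte markers summed to 645 CPM in T13, 234 CPM in T14 and 92.7 to 166 CPM in the other 4. KRT10, at 56.2 to 169 CPM, was the most even of their 3 most abundant members, and KRT14 (183 and 43.8 CPM) and KRT5 (124 and 40.9 CPM) were high in T13 and T14. Leukocyte markers summed to 80.5, 45.2 and 87.0 CPM against 62.5, 44.9 and 113 CPM, with 2 of 15 members above 0. LYZ, CSF1R and LAPTM5 were the most abundant, at 4.40 to 45.6 CPM. Fibroblast and collagen markers summed to 5795 CPM in T13 and 6968 CPM in T14, and to 2413 to 3220 CPM in the other 4. Endothelial markers summed to 219 to 393 CPM and adipocyte markers to 9.66 to 21.8 CPM. FCGR3A and ADIPOQ had 0 counts in all 6 libraries. T13 and T14, 1 in each group, thus had the highest sums for muscle, keratinocyte, leukocyte and fibroblast markers. For endothelial markers T3 (337 CPM) exceeded T14 (330 CPM), and for adipocyte markers T2 (19.2 CPM) exceeded T13 (17.1 CPM). The part of T13 and T14 in the results above was not tested.

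Genes higher with RNF4 were unevenly spread over the chromosomes, a pattern that was noticed after the values were seen. Chromosome X holds 585 of the tested genes (3.14%) and 22 of the 187 with an unadjusted p under 0.05 and a higher level with RNF4 (11.8%). That was 3.76% of the X genes tested, whereas the share ran from 0.296% to 2.18% on single autosomes. On the lower side 1 X gene, SYTL5, had such a p. The median log2 difference of all X genes was 0.13. Genes measured in the same libraries are not independent, and no test was made of the share.

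Most of the 22 X genes were highest in T2, and in most of them T5 also exceeded the mutant group. AMOT, which encodes angiomotin, a scaffold that binds YAP, had 48.3, 21.8 and 3.02 CPM with RNF4 and 1.13, 4.20 and 2.22 CPM with the mutant. IRS4, an insulin receptor substrate, had 21.3, 11.4 and 0.0827 CPM against 0, 0.525 and 0 CPM. For both genes T13 lay within the range of the mutant group. GPC3, the heparan sulphate proteoglycan glypican 3, had 36.7, 3.90 and 5.09 CPM against 0.356, 0.481 and 4.38 CPM, so T14 exceeded T5. RADX, which encodes a protein that binds single-stranded DNA, had 36.5, 4.08 and 0.289 CPM against 0.356, 0.700 and 0.284 CPM. FGF13 and BEX1 had 13.4 and 9.52 CPM in T2 and at most 1.12 CPM in any other library of the 6. Of the 22 genes, 20 had their highest value in T2, and 19 had T2 and T5 above every mutant library. T13 lay above every mutant library in 12 of the 22. These 12 are not all among the 19, since in GPC3 T13 did so and T5 did not. The uninduced libraries reached 103 CPM for AMOT and 53.9 CPM for IRS4, both in T4, which had no Dox. Of the 38 genes called among 38388 without a filter on low counts, 11 were on chromosome X. The share of X among those 38388 genes is not given here. AMOT, IRS4, GPC3, RADX, FGF13 and BEX1 are among the 11, so the number is not a separate observation.

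**Figure D5:**
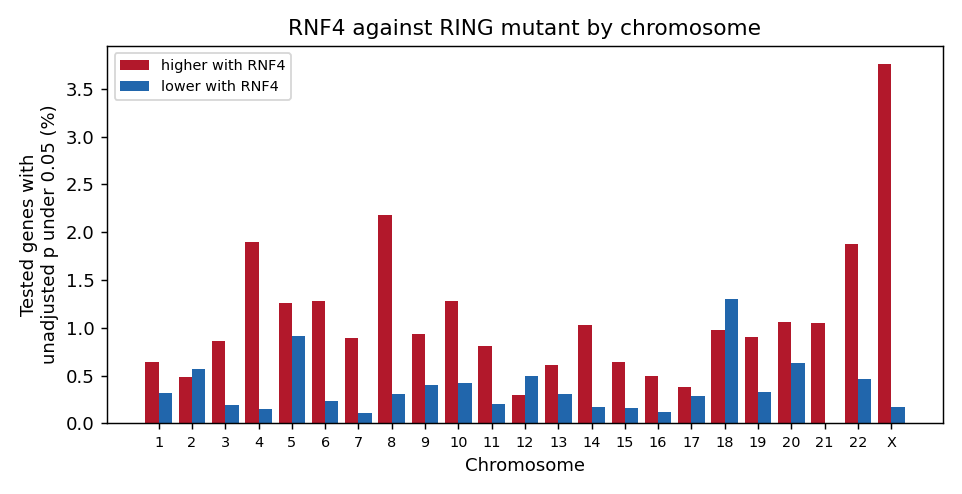
Share of tested genes on each chromosome with an unadjusted p under 0.05, higher (red) or lower (blue) with RNF4. Chromosome X has the tallest red bar, 3.76%, against at most 2.18% on an autosome.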

How the data were processed

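RNA-seq counts of 6 tumour libraries were compared, with 3 further libraries (RNF4 without Dox) in the fit. The authors deposited raw counts for 57820 gene identifiers. Per the submitters' processing notes, the tools were TopHat2 2.0.13, HTSeq 0.6.0 and DESeq2 1.10.1, and the build was GRCh38. Reads had 50 bases. The strand setting of the counting is not given in the sources used here, so overlapping and antisense genes may share reads. The authors' deposited log2 fold changes and adjusted p-values were read for their list of 8 genes only, and which tool made them was not settled, since the tables also hold dispersion columns of the edgeR kind. The 9 normalised columns were not used. The counts are whole reads without molecular identifiers. Symbols were taken from a name table (51996 identifiers matched) and coordinates from GENCODE 29 (52338 matched).

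Counts were analysed in R 4.3.3 with edgeR 4.0.16. Genes were kept by filterByExpr, scaled by TMM and fitted with 1 mean per group over all 9 libraries. The contrast was put to the quasi-likelihood F-test of edgeR (two-sided), with Benjamini-Hochberg adjustment over all genes at 0.05. The SE was taken as the size of the log2 change divided by the root of F. Nothing in the labels says that libraries came from separate cultures, so p-values measure the spread between these pools. On simulated data for 18303 genes, the fit gave the recoveries printed in the results and 10 false calls. Alternatives were RLE scaling, 2 other filters, only the 6 libraries, DESeq2 1.42.0, edgeR's likelihood ratio test, limma 3.58.1 (voom with quality weights), leaving out T3 and T14, a replicate block, and leaving out each library.

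The text names RNF4, the 12 genes each way with the smallest unadjusted p among genes with a symbol, groups that do not overlap and a mean of at least 1 CPM, the authors' 8 genes, up to 4 members per list by unadjusted p, and the 3 most abundant members of host lists. HIF1A, the other members with groups apart in the hypoxia and ATF4 lists, the host markers at 0 and the chromosome X genes were named after their values were seen. The comparison, its lists (36) and these rules were chosen with earlier results of these data known. Sequences came from GENCODE 29 and RefSeq (GRCh38.p14).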

Additional observations from a re-analysis of the deposited data

How the results depend on the processing

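The quasi-likelihood test called 0 genes with RLE scaling, with a filter of 1 CPM in 3 libraries, with only the 6 libraries, without T3 and T14 and without any 1 library, and limma voom also called 0. Without a filter on low counts it called 38, DESeq2 called 1 (AL035425.3) and edgeR's likelihood ratio test 3, all higher with RNF4. Why these counts differ was not tested. Genes whose groups did not overlap numbered 938 higher and 888 lower of 38388 without the filter. With the filter they were 505 and 422 of 18618. Smaller groups overlap less often by construction: without T3 and T14 there were 3760 and 2994, and leaving out 1 library gave 1073 to 1683 higher and 911 to 1407 lower. The replicate block by runs of column numbers (T2 with T3, T5 with T6, T13 with T14) called 0 genes. The labels' own replicate numbers repeat within a group and are not in the column names, so they could not serve as a block.

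Some named genes changed sign. Without T3 and T14 the log2 difference was -0.43 for RNF4, 0.18 for TYRP1, 0.77 for PMEL, 0.021 for ITGB3, 0.65 for CSF1R, 0.055 for LAPTM5, 1.502 for ACTA1, 1.36 for MYH1 and 3.07 for CKM. With limma voom it was 0.32 for PMEL, -0.085 for SNAI2, 0.61 for CSF1R, 0.036 for LAPTM5, 0.58 for ACTA1, 0.82 for MYH1 and 0.88 for CKM. The replicate block gave -1.66 for KRT14 and -0.42 for KRT5. Leaving out 1 library gave -2.66 to 0.018 for TYRP1, -2.21 to 0.062 for PMEL, -0.022 to 0.91 for LYZ, -0.65 to 0.43 for CSF1R, -1.98 to 1.97 for ACTA1, -2.33 to 1.54 for MYH1, -1.94 to 3.42 for CKM, -4.23 to 2.95 for KRT14 and -3.33 to 2.91 for KRT5. The cause was not tested. Of 36 list medians, 10 kept their sign under every alternative, namely hypoxia, ATF4, glycolysis, heat shock, MYC, DNA damage, G1/S and G2/M above 0, and ERK output and interferon below 0. Some of these came close to 0, with -0.00025 for ERK output without T3, 0.0011 for G1/S without T6 and 0.0066 for glycolysis without T5. A kept sign is thus not a stable size.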
